A study of Mus musculus with 10 samples.

Results

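The 10 genes described here carry glucose into the cell and break it down to lactate, and they were followed in pieces of mouse pancreas tail with 0, 1 or 2 floxed copies of Insr, which encodes the insulin receptor. They were chosen by symbol (Slc2a1, Hk1, Hk2, Pfkl, Pfkp, Aldoa, Pgk1, Eno1, Pkm and Ldha). All 10 were found among the 24421 genes of the count table, and 9 of them, all but Eno1, passed the filter on low counts. RNA sequencing covered 10 female mice aged 12 weeks, 1 library each. All animals carried Ptf1aCreER, an inducible Cre under control of Ptf1a, which is active in enzyme-secreting acinar cells, and the nTnG nuclear reporter. Insr WT mice (3 libraries) had the alleles Insrw/w, Insr Het mice (3 libraries) Insrw/f and Insr KO mice (4 libraries) Insrf/f, where f is a floxed allele that Cre can remove. The receptor can be lost only in cells in which the Ptf1a driver was active, while RNA came from a whole piece of tissue. The labels count more WT mice than the 3 analysed here. Library names such as WT-2404 join group and mouse number, and p-values measure the spread between these mice.

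Glucose enters most cells through facilitative carriers such as the product of Slc2a1. Hexokinase traps it as a phosphate, phosphofructokinase commits it to glycolysis, and the later enzymes yield pyruvate, which lactate dehydrogenase can turn into lactate. Insulin is known to favour glycolysis in many tissues, and hypoxia-inducible factors are known to bind sites with the core letters ACGTG or GCGTG near several of these genes.

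The libraries differed in make-up in ways that touch every result below. Total gene counts ranged from 11718559 to 19024351. The share of gene counts in acinar markers was 11.8% for WT-2404, 42.6% for WT-1860 and 45.8% to 58.3% for the other 8 libraries. WT-2067, at 53.2%, was the only WT library in that range, so results without it rest on WT-2404 and WT-1860 as controls. The TMM scaling factor was 3.53 in WT-2404 and 0.596 to 1.56 elsewhere. WT-2404 also had the highest summed level of fibroblast, myeloid and ductal markers of the 10 libraries, and many of the results are therefore also given without it. Insr itself was at 21.0, 27.8 and 40.5 CPM (counts set to a common library size with TMM factors) in WT, at 43.1, 44.2 and 28.2 CPM in Het and at 22.7, 33.3, 35.4 and 34.6 CPM in KO libraries. These ranges overlapped, and gene counts of a tissue piece do not check the loss of exons in acinar cells.

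To show what lies in front of these genes, the 250 bases upstream of a RefSeq start site (GRCm38.p6) are given for Ldha and Hk1, the tested members with the lowest KO levels relative to WT, for Hk2, the member that differed least, and for Pgk1. Capitals mark ACGTG, or CACGT where it lies on the other strand, and each sequence is written 5′ to 3′ on the strand of its gene. The windows are chr7:46845554-46845803 (plus strand) for Ldha, chr10:62379909-62380158 (minus strand) for Hk1, chr6:82774455-82774704 (minus strand) for Hk2 and chrX:106186850-106187099 (plus strand) for Pgk1, none of which overlaps an annotated exon.
Ldha: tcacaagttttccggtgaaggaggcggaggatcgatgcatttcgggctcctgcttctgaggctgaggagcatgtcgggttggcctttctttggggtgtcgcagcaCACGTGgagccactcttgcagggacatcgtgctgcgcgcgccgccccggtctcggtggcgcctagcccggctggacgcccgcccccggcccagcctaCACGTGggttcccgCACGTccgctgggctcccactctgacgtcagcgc
Hk1: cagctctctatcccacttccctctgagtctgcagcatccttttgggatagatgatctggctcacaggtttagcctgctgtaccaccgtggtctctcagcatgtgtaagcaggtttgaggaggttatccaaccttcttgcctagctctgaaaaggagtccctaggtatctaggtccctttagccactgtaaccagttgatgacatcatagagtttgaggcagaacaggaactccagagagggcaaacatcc
Hk2: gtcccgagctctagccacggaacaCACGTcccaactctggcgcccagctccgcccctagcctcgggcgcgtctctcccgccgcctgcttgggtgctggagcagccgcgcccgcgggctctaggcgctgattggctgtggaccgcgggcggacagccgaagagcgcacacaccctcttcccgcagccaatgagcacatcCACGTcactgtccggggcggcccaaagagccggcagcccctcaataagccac
Pgk1: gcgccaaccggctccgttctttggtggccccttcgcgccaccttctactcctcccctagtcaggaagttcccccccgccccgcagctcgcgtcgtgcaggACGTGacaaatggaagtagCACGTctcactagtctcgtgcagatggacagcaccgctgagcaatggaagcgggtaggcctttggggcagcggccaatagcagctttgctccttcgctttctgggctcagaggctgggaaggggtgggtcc
The Ldha window held 5 matches over both strands at 3 places, since CACGTG reads the same on either strand. Hk2 and Pgk1 held 2 matches each and Hk1 held 0. With 1 start site for each member, 5 of 10 windows held ACGTG on either strand, beside 16.6% of 32851 windows of that length in the RefSeq table. For GCGTG the count was 4 of 10, beside 28.2%, and for the GC box GGGCGG it was 7 of 10, beside 32.7%. Ldha and Eno1 have other RefSeq start sites with as many GENCODE starts nearby, and the first by coordinate was taken; the second Ldha window held 0 matches to ACGTG. Over all choices among tied sites the counts of 10 ran from 4 to 5 for ACGTG, 4 to 5 for GCGTG and 6 to 8 for GGGCGG. The RefSeq windows were not matched to the members for base content, so these shares do not test for an excess. A match is a run of letters and not a bound site.

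The first comparison asks how these genes stand in tissue with 2 floxed Insr alleles. In KO against WT libraries, 0 of 9 members passed an adjusted p of 0.05 with edgeR's quasi-likelihood test, and 0 genes of the 13688 tested did (0%). At an unadjusted p under 0.05 there were 3 of 9 members, Ldha, Hk1 and Pkm, all lower in KO libraries, where 13.9% of all genes were lower at that level and 23.5% (3221 genes) reached it in either direction. DESeq2 placed 1009 of the 13688 genes past its adjusted threshold, and 1 of 9 members, Ldha. The fold change was below 0 for 9 of 9 members, beside 48.2% of all genes, and the members' median was -0.41 on the log2 scale beside 0.025 over all genes. Without WT-2404 all 9 were still below 0, but the median was -0.16 and 1 of 9, Ldha, had an unadjusted p under 0.05, beside 9.42% of all genes. Without WT-2067, 1933 of 14172 genes passed in edgeR, and 2 of 9 members (Ldha and Hk1). There 5 of 9 members had an unadjusted p under 0.05, where 32.5% of all genes did. Without KO-2070 it was 1 of 9, beside 16.5% of all genes. Without KO-2124 it was 2 of 9, where 3802 of 13441 genes reached that p. In bulk tissue, fewer cells of a kind and less RNA per cell cannot be told apart.

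Het against WT libraries used the same WT libraries as controls. Again 0 of 9 members and 0 genes (0%) passed in edgeR. Ldha alone had an unadjusted p under 0.05 (1 of 9), beside 11.6% of all genes lower at that level and 19.8% (2714 genes) in either direction. DESeq2 called 400 of 13688 genes, Ldha among them. The members' median was -0.50 beside 0.0047 over all genes, with 9 of 9 below 0, beside 49.7% of all genes. Without WT-2404 it was -0.29, and 8 of 9 were below 0, the exception being Pfkl at 0.052; 1 of 9, Ldha, had an unadjusted p under 0.05, beside 7.87% of all genes. Without WT-2067, 1158 of 14172 genes passed in edgeR, Ldha among them, and 4 of 9 members reached the unadjusted level, beside 30.1% of all genes. Between KO and Het libraries, 0 of 9 members reached an unadjusted p under 0.05 in edgeR, beside 0.752% (103 genes) of all genes, and 0 genes passed the adjusted threshold in edgeR or DESeq2. The members' median there was -0.034, with fold changes from -0.21 to 0.27. A linear fit on floxed allele number put 9 of 9 members below 0, with a median of -0.20 per allele and 3 of 9 lower at an unadjusted p under 0.05, beside 13.8% of all genes, and 0 genes (0%) passed in edgeR. Without WT-2404 the median was -0.087 per allele, 8 of 9 were below 0 and 1 of 9 reached that p, beside 7.74% of all genes in either direction.

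**Figure D1:**
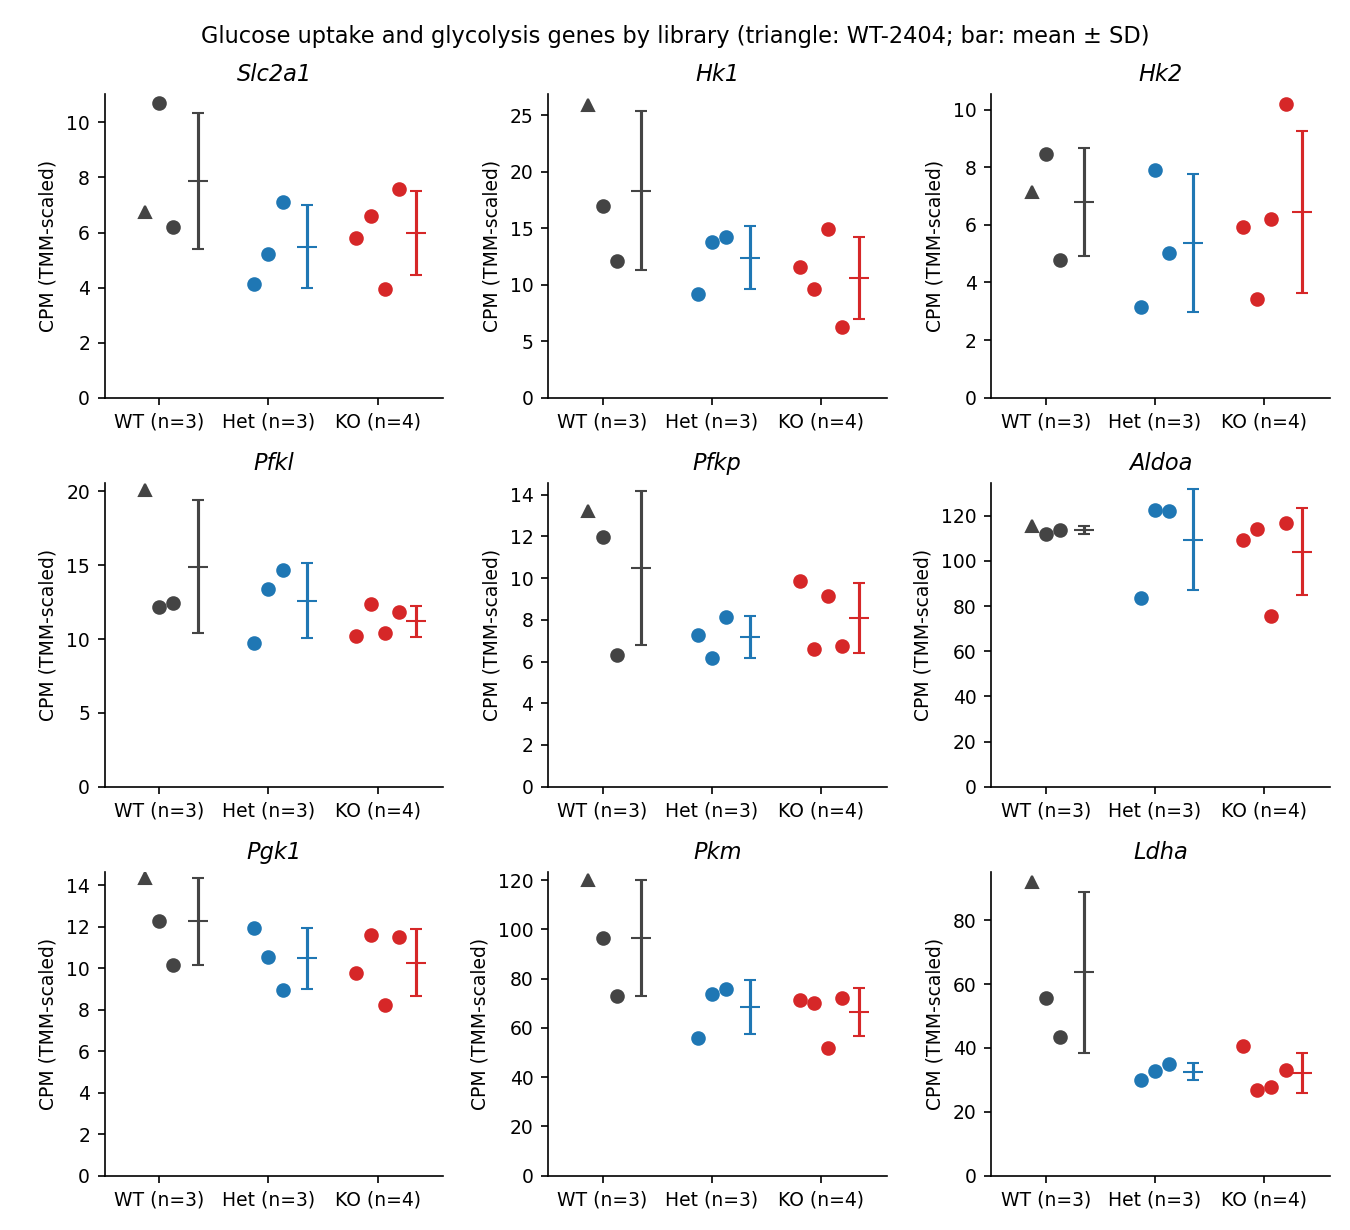
CPM (TMM-scaled, y axes from 0) of the tested genes in each library, grouped by genotype label; triangles are WT-2404 and bars give mean ± SD. The Ldha points of Het and KO libraries all lie below those of WT libraries, and WT-2404 is the highest library for Ldha, Pkm, Hk1, Pfkl, Pfkp and Pgk1.

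Slc2a1 encodes the carrier through which many cells take up glucose without insulin (chr4:119108711-119137983, plus strand; gene coordinates here and below are from GENCODE M21 on GRCm38). It was at 6.75, 10.7 and 6.19 CPM in WT-2404, WT-1860 and WT-2067, at 4.12, 5.22 and 7.12 CPM in Het libraries and at 5.81, 6.58, 3.96 and 7.57 CPM in KO libraries. WT-1860 stood above the rest, and the groups otherwise overlapped. The log2 fold change of KO against WT was -0.41 (SE 0.29, edgeR adjusted p = 0.390), -0.52 without WT-2404 and -0.13 without WT-1860. The Het value was -0.51 (SE 0.31, edgeR adjusted p = 0.348), -0.59 without WT-2404 and -0.23 without WT-1860.

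Hexokinase, the first enzyme of the pathway, is encoded by Hk1, the widespread form (chr10:62268855-62379908, minus strand), and Hk2, the form known to respond to insulin in muscle and fat (chr6:82725025-82774454, minus strand). Hk1 was at 26.0, 17.0 and 12.1 CPM in WT libraries, at 9.21, 13.8 and 14.2 CPM in Het libraries and at 11.6, 9.61, 15.0 and 6.26 CPM in KO libraries. WT-2404 was the highest and KO-2126 the lowest, and the ranges overlapped through KO-2124. Its KO-to-WT difference in log2 level was -0.78 (SE 0.31, edgeR adjusted p = 0.163), with an unadjusted p of 0.0255, and it was -0.43 without WT-2404. Without WT-2067 it was -1.0 with an edgeR adjusted p of 0.0472, where 1933 of 14172 genes passed. Over all alternatives the adjusted p ran from 0.0348, scaled by library size alone in edgeR, to 0.646, without WT-2404. Scaled by library size alone, 2835 of 13688 genes passed. Hk2 was at 7.15, 8.47 and 4.78 CPM in WT, at 3.16, 7.92 and 5.03 in Het and at 5.93, 3.42, 6.22 and 10.2 in KO libraries, and the groups overlapped. Its fold change of -0.076 (SE 0.37, edgeR adjusted p = 0.917) was 0.10 without WT-1860 and 0.12 without KO-2070.

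KO-2126 held the lowest Hk1 and the highest Hk2 level of the 10 libraries. The log2 ratio of Hk2 to Hk1 counts, which does not depend on library scaling, was 0.70 there and -1.86 to -0.80 in the other 9 libraries. Its mean was -1.40 ± 0.432 in WT (SD, n = 3), -1.27 ± 0.414 in Het libraries (SD, n = 3), and -0.75 ± 0.988 in KO ones (SD, n = 4). KO exceeded WT by 0.65, with p = 0.400 by exact permutation (two-sided) and 0.80 over the 12 comparisons of 4 ratios; it was 0.17 without KO-2126.

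Phosphofructokinase, the committed step, is encoded here by Pfkl, the liver form (chr10:77986947-78010083, minus strand), and Pfkp, the platelet form (chr13:6579768-6648777, minus strand). Pfkl was at 20.1, 12.2 and 12.4 CPM in WT-2404, WT-1860 and WT-2067, at 9.73, 13.4 and 14.7 CPM in Het and at 10.2, 12.4, 10.4 and 11.8 CPM in KO libraries. Apart from WT-2404 the groups overlapped. The KO against WT log2 fold change of -0.42 (SE 0.22, edgeR adjusted p = 0.252) was -0.15 without that library. Pfkp was at 13.2, 12.0 and 6.31 CPM in WT, at 7.28, 6.15 and 8.16 in Het and at 9.89, 6.58, 9.12 and 6.77 in KO libraries, with WT-2067 among the lowest. Its KO value was -0.37 (SE 0.26, edgeR adjusted p = 0.391), -0.16 without WT-2404 and -0.62 without WT-2067. The log2 ratio of Pfkp to Pfkl counts differed by 0.050 between KO and WT (exact permutation p = 0.886, two-sided, 0.943 adjusted over the 12 comparisons), and leaving out single libraries moved it from -0.17 to 0.30.

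Aldoa, the aldolase that splits fructose bisphosphate (chr7:126795234-126800751, minus strand), was even among WT libraries, at 116, 112 and 114 CPM. Het libraries were at 83.6, 123 and 122 CPM and KO libraries at 109, 114, 75.8 and 117 CPM, so that Het-2066 and KO-2124 stood below the others. The log2 fold changes were -0.13 (SE 0.23, edgeR adjusted p = 0.762) in KO and -0.056 (SE 0.25, edgeR adjusted p = 0.912) in Het, the latter at 0.11 without Het-2066. Pgk1, a step of glycolysis that yields ATP (chrX:106187100-106203699, plus strand), was at 14.3, 12.2 and 10.2 CPM in WT, at 11.9, 10.5 and 8.96 in Het and at 9.77, 11.6, 8.2 and 11.5 in KO libraries. The groups overlapped, and the KO value was -0.27 (SE 0.20, edgeR adjusted p = 0.414), or -0.14 without WT-2404.

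Eno1, the enolase of most tissues (chr4:150236721-150248879, plus strand), was nearly absent from the counts. It had 18, 2 and 7 counts in WT libraries, 0, 8 and 5 in Het libraries and 1, 0, 2 and 2 in KO libraries, while Aldoa had 868 counts or more in every library. A count of 0 allows up to 0.263 CPM in Het-2066 and 0.395 CPM in KO-2070 (3 counts, counting error only), and no fold change is given. Of the 50-base windows of the longest coding Eno1 transcript, 72.2% also occur in a transcript of another gene, and 70.5% in Eno1b. Eno1b had 5, 14, 8 and 17 counts in WT-2404, Het-2066, KO-2070 and KO-2124 and 0 in the other 6 libraries. How reads from shared windows were counted is not given in the sources used here, and its part in these counts was not tested.

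The same measure was taken for the other members. Shared windows made up 68% of the Pgk1 transcript, 67.9% with Pgk1-rs7, 34.4% of Pkm, 16.6% of Ldha, 13.5% of Aldoa, 0.0543% of Pfkl and 0% of Slc2a1, Hk1, Hk2 and Pfkp. Pgk1-rs7 is not among the genes of the count table. How far shared windows alter the levels of these members was not tested, and their share does not measure the error of a level. On the other strand, exons of Slc2a1, Hk1, Pfkp and Aldoa overlap those of Gm12868, Hk1os, Pitrm1 and Fam57b, and Pkm overlaps Gm49759 on its own strand.

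Pkm, the pyruvate kinase of most tissues outside liver and red cells (chr9:59656368-59679375, plus strand), was at 120.1, 96.4 and 72.9 CPM in WT-2404, WT-1860 and WT-2067. Het libraries were at 55.8, 73.8 and 75.7 CPM and KO libraries at 71.2, 69.9, 51.8 and 72.3 CPM. All 4 KO libraries lay below all 3 WT libraries, though KO-2126 and WT-2067 were close, and Het libraries overlapped with WT. The means were 96.5 ± 23.6 CPM in WT (SD, n = 3), 68.4 ± 11 in Het libraries (SD, n = 3), and 66.3 ± 9.70 in KO ones (SD, n = 4). The KO-to-WT difference in log2 level was -0.54 (SE 0.23, edgeR adjusted p = 0.189), with an unadjusted p of 0.0375, or -0.35 without WT-2404. The spliced forms M1 and M2 of pyruvate kinase cannot be told apart in gene counts.

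Ldha, the lactate dehydrogenase subunit that favours lactate (chr7:46841475-46855627, plus strand), had the lowest KO level relative to WT of the 9 tested members. It was at 91.9, 55.6 and 43.3 CPM in WT-2404, WT-1860 and WT-2067, at 29.8, 32.8 and 35 CPM in Het libraries and at 40.5, 26.9, 27.8 and 33.0 CPM in KO libraries. The 3 WT libraries lay above all 7 others, and WT-2404 stood well above both other WT libraries. The means were 63.6 ± 25.3 CPM in WT (SD, n = 3), 32.5 ± 2.62 in Het libraries (SD, n = 3), and 32.0 ± 6.25 in KO ones (SD, n = 4), and the fitted level was 49.7% lower in KO and 48.9% lower in Het libraries. The log2 fold changes were -0.99 (SE 0.25, edgeR adjusted p = 0.116) in KO and -0.97 (SE 0.27, edgeR adjusted p = 0.183) in Het, with unadjusted p of 0.00183 and 0.00381. DESeq2 called Ldha in both comparisons, with adjusted p of 0.0147 and 0.0411.

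The size of the Ldha difference rested in part on single WT libraries. Without WT-2404 the log2 fold changes were -0.62 in KO (edgeR adjusted p = 0.505) and -0.59 in Het (edgeR adjusted p = 0.616). Without WT-2067 they were -1.20 and -1.18 and passed in edgeR, with adjusted p of 0.0203 and 0.0330. In that setting 1933 of 14172 genes passed in KO and 1158 in Het. It kept only WT-2404 and WT-1860, the WT libraries with the lowest acinar marker shares (11.8% and 42.6%). Among the 9 members, ranges were apart and lower in KO than in WT for 2, Ldha and Pkm, beside 9.17% of all genes. In Het against WT they were apart and lower for 1, Ldha, beside 13.5%.

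**Figure D2:**
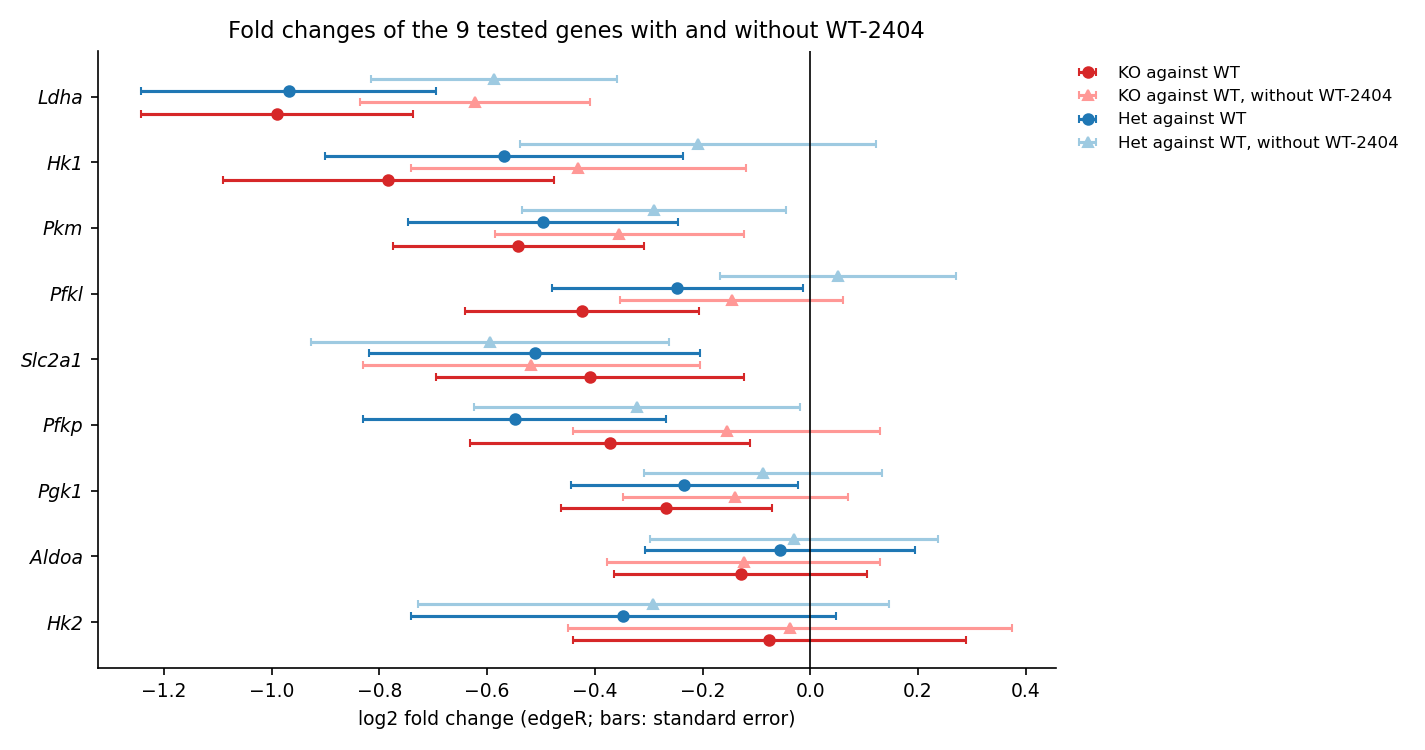
Log2 fold changes of the tested genes with standard errors (edgeR), for KO and Het against WT, with all libraries and without WT-2404. Ldha is at -0.99 in KO and -0.97 in Het with all libraries, and at -0.62 and -0.59 without WT-2404; no value passed an adjusted p of 0.05.

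The partner subunit Ldhb, which favours pyruvate, was at 5.40 ± 0.622 CPM in the 3 WT libraries (mean ± SD, n = 3) and 6.39 ± 0.664 CPM in the 4 KO ones (n = 4), a log2 fold change of 0.24 (SE 0.21, edgeR adjusted p = 0.484). The log2 ratio of Ldha to Ldhb counts was 3.96, 3.56 and 2.94 in WT, 1.86, 2.45 and 2.52 in Het and 2.76, 2.11, 1.91 and 2.44 in KO libraries. All 3 WT values exceeded all 7 others. The KO minus WT difference was -1.18 (exact permutation p = 0.0286, two-sided) and the Het minus WT difference -1.21 (exact permutation p = 0.10), each the smallest p these group sizes allow. Adjusted over the 12 comparisons of ratios, the exact p-values were 0.343 and 0.400, and neither passed. Without WT-2404 the KO minus WT difference was -0.94.

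**Figure D3:**
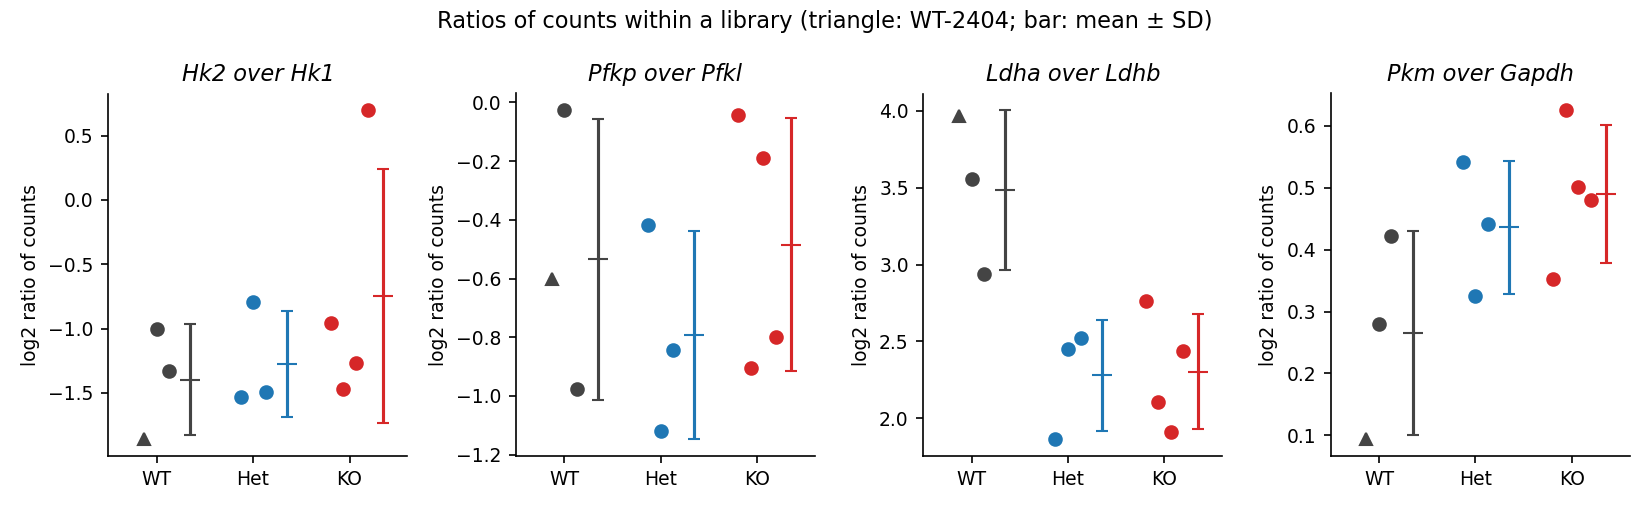
Log2 ratios of raw counts within each library for 4 gene pairs (y axes do not start at 0), grouped by genotype label; triangles are WT-2404 and bars give mean ± SD. The Ldha over Ldhb values of the 3 WT libraries lie above those of the 7 Het and KO libraries, and KO-2126 stands apart for Hk2 over Hk1 at 0.70.

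Levels per kilobase of the longest coding transcript rank the members. Averaged over the 10 libraries, Aldoa stood at 70.2 CPM per kilobase, Pkm at 31.2, Ldha at 23.0, Pgk1 at 5.99, Pfkl at 3.41, Hk1 at 3.15, Pfkp at 2.06, Slc2a1 at 1.96, Hk2 at 1.13 and Eno1 at 0.111. Over single libraries the level of Pkm ran from 21.3 to 49.4 and that of Ldha from 14.8 to 50.6 CPM per kilobase, so these neighbours overlapped. The ranges of all other neighbours in this order overlapped as well, apart from Ldha with Pgk1 and Hk2 with Eno1. In WT libraries alone Hk1 (4.29 CPM per kilobase) stood above Pfkl (4.00). The low places of Eno1 and Pgk1 are subject to the shared windows given above.

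Over the 36 pairs of tested members and the 10 libraries, the Pearson correlation of log2 CPM had a median of 0.44 and ran from -0.091 to 0.90, as a description of libraries that share their scaling and make-up. Pkm and Ldha were at 0.90, and 0.78 without WT-2404. Slc2a1 and Pkm were at 0.73, and 0.93 without that library. Without WT-2404 the median was 0.32, and 7 of 36 pairs were below 0.

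The summed level of the 10 genes was 415, 337 and 283 CPM in WT-2404, WT-1860 and WT-2067, 215 to 292 CPM in Het libraries and 208 to 277 CPM in KO libraries. Fibroblast, myeloid and ductal markers stood in the same order within WT libraries. Fibroblast markers summed to 4464, 1889.9 and 1270.0 CPM in these 3 libraries, to 507 to 989 in Het and to 444 to 1137 in KO libraries, and 7 of 8 were lower in KO, 5 of them at an unadjusted p under 0.05. Myeloid markers summed to 1369, 543 and 361 CPM in WT, to 189 to 292 in Het and to 106 to 400.0 in KO libraries, with 8 of 8 lower at that level. Ductal markers summed to 1253, 857 and 770.2 CPM in WT, to 367 to 637 in Het and to 376 to 627 in KO libraries, with 6 of 8 lower at that level. The acinar and endocrine markers that define pancreas were counted in every library, and 12 of 12 acinar and 5 of 6 endocrine markers were higher in KO than in WT. In edgeR, 0 of the marker genes passed an adjusted p of 0.05. Over all genes, 48.2% had a fold change below 0 in KO against WT, and 13.9% were lower at an unadjusted p under 0.05. The numbers of markers higher or lower, here and below, were taken with WT-2404 included.

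Of the remaining lists, lymphoid markers were lower in KO for 7 of 7, with sums of 15.3 to 36.1 CPM in WT, 7.55 to 8.90 in Het and 2.12 to 23.0 in KO libraries and with Cd3g and Ms4a1 at 0 in at least 1 library. Endothelial markers summed to 83.8 to 127 CPM in WT and 82.4 to 164 in KO libraries, and adipocyte markers to 1.59 to 9.68 and 3.32 to 12.0, with 5 of 5 and 4 of 5 higher. Red cell markers summed to 8.21 to 25.9 CPM in WT and 2.93 to 28.9 in KO libraries, and muscle markers to 0.57 to 1.37 and 0.247 to 1.71, with 1 gene tested in each list. The part that the make-up of the pieces has in the levels of the 10 genes was not tested.

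**Figure D4:**
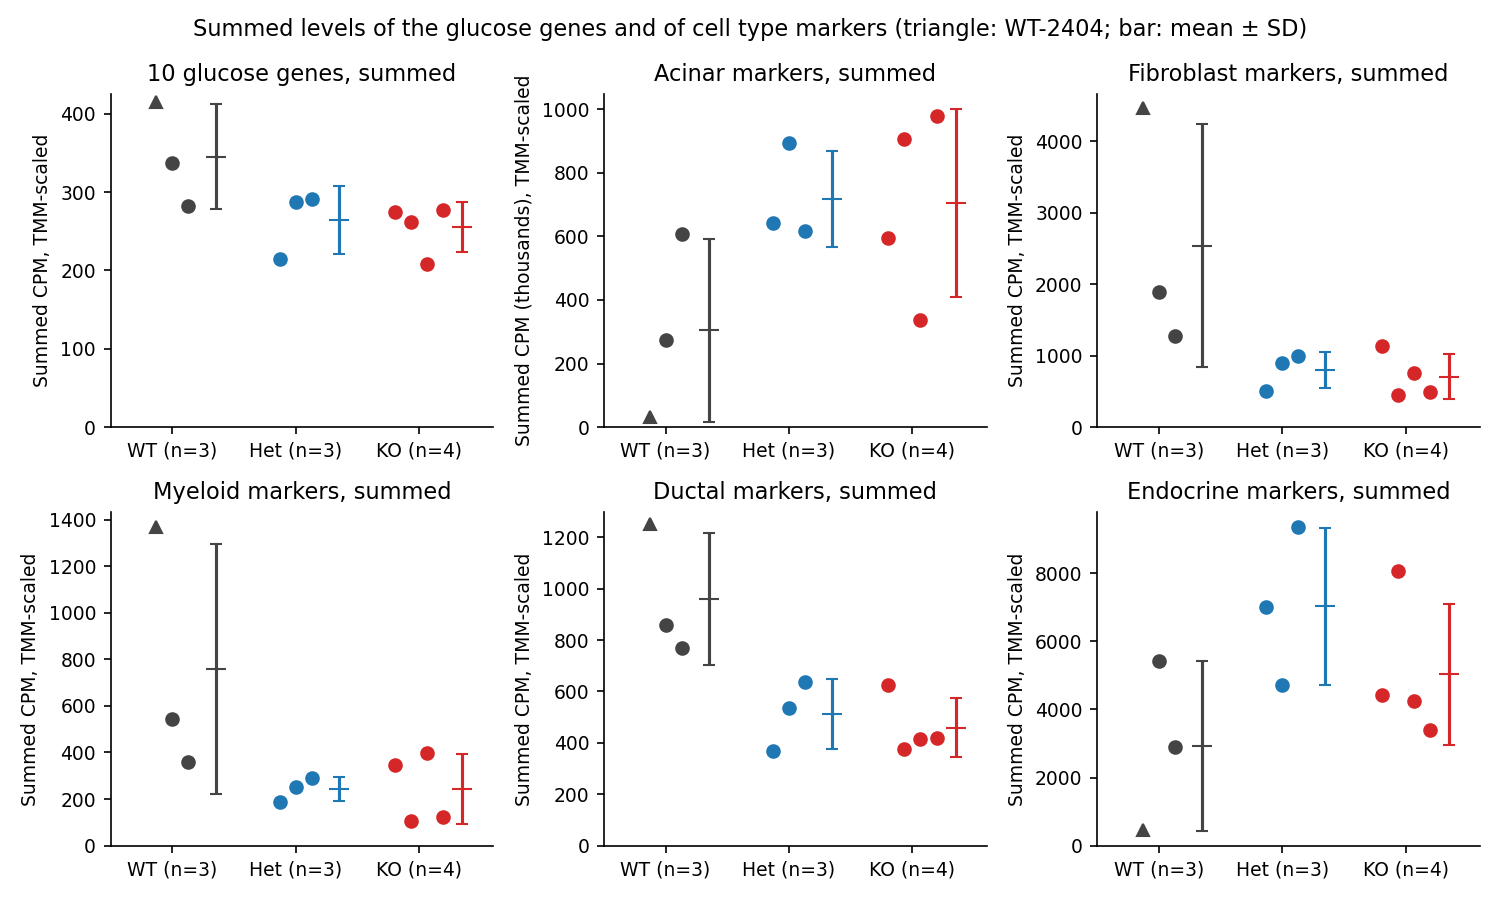
Summed TMM-scaled CPM of the 10 glucose genes and of marker lists in each library, by genotype label; triangles are WT-2404 and bars give mean ± SD. WT-2404 is highest for the glucose genes (415 CPM) and for fibroblast (4464 CPM), myeloid (1369 CPM) and ductal markers (1253 CPM).

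The rest of the pathway was read from 6 further lists, in which 0 genes passed an adjusted p of 0.05 in KO against WT with edgeR. Over all genes, 9.6% were higher and 13.9% lower at an unadjusted p under 0.05, and 48.2% were below 0. From each list, up to 3 genes were named here and below for the smallest unadjusted p in KO against WT. The p-values and separated ranges of those genes come from the values that chose them. Among 15 tested glycolysis enzymes outside the members, 7 were higher and 8 lower, with 1 higher and 3 lower at an unadjusted p under 0.05. Gapdh, the dehydrogenase in the middle of the pathway, was at 82.1 ± 29.1 CPM in the 3 WT libraries (mean ± SD, n = 3) and 47.4 ± 8.36 CPM in the 4 KO ones (n = 4), with a log2 fold change of -0.79 (SE 0.27, edgeR adjusted p = 0.128), or -0.50 without WT-2404, and 82.5% of its windows are shared with other genes. The log2 ratio of Pkm to Gapdh counts differed by 0.22 between KO and WT (exact permutation p = 0.0857, two-sided, 0.400 adjusted over the 12 comparisons). Pklr, the pyruvate kinase of liver and red cells, was at 5.37 ± 0.677 and 2.83 ± 0.454 CPM, with ranges apart and a fold change of -0.91 (SE 0.24, edgeR adjusted p = 0.116), and -0.91 without WT-2404. The DESeq2 adjusted p of Pklr was 0.0172. Hk3, another hexokinase, was at -1.76, and -0.88 without WT-2404. Pfkm, the muscle phosphofructokinase, stood the other way, at 7.31 ± 1.17 CPM in WT and 11 ± 2.41 CPM in KO and at 0.59 (SE 0.23, edgeR adjusted p = 0.159). Tpi1 was at -0.32, Gpi1 at -0.064 and Pgam1 at 0.17, or -0.12, 0.014 and 0.48 without WT-2404, and Pgam1 at -0.022 without WT-2067. Scaled by library size alone, which puts the median of all genes at -1.17, Pfkm was at -0.59, Ldhb at -0.95 and Pgam1 at -1.28.

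The hexose carriers outside the members numbered 11 tested genes, 5 higher and 6 lower in KO, with 2 higher and 1 lower at an unadjusted p under 0.05. Of all genes, 9.6% were higher and 13.9% lower at that level. Slc2a8, an intracellular carrier, was at 5.49 ± 0.507 CPM in the 3 WT libraries (mean ± SD, n = 3) and 8.69 ± 1.88 CPM in the 4 KO ones (n = 4), a log2 fold change of 0.66 (SE 0.23, edgeR adjusted p = 0.133), and -0.59 by library size alone. Slc2a9, known as a urate carrier, was at -1.0, or -0.62 without WT-2404, and Slc2a12 at 2.02 on 1 to 24 counts in a library. Slc2a2, the carrier of beta cells and liver, was at 0.952 CPM in WT-2404, with a fold change of 1.04 (SE 0.67, edgeR adjusted p = 0.360), or 0.49 without that library, 1.59 without WT-1860 and 0.51 without KO-2070. Slc2a3, the neuronal carrier, was at -0.75 on 5 to 166 counts in a library, or -0.48 without WT-2404.

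Of 16 tested genes of flux control, pyruvate entry and lactate export, 11 were higher and 5 lower in KO, and 7 were higher and 1 lower at an unadjusted p under 0.05, beside 9.6% of all genes higher and 13.9% lower. The median was 0.42, and 0.37 without WT-2404, where 2 of 16 reached that p, beside 9.42% of all genes in either direction. Mpc2, a subunit of the mitochondrial pyruvate carrier, was at 9.32, 10.2 and 12.2 CPM in WT, at 24.3, 18.1 and 16.8 in Het and at 15.3, 19.5, 18.3 and 20.5 in KO libraries. All 7 libraries with a floxed allele exceeded all 3 WT libraries. The log2 fold change in KO was 0.80 (SE 0.19, edgeR adjusted p = 0.116, DESeq2 adjusted p = 0.0120), 0.71 without WT-2404 and -0.33 by library size alone. Txnip, which restrains glucose uptake, was at 228, 261 and 462 CPM in WT, at 1024, 558 and 668 in Het and at 729, 341, 1025 and 1427 in KO libraries. Its fold change in KO was 1.47 (SE 0.48, edgeR adjusted p = 0.126, DESeq2 adjusted p = 0.0204), or 1.27 without WT-2404. KO-2070 lay within the WT range and the other 3 KO libraries above it. Pfkfb4, which sets the level of an activator of phosphofructokinase, was at -1.08, and Slc16a3, a lactate exporter of glycolytic cells, at -1.39, or -0.42 without WT-2404.

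The pentose phosphate list (7 tested) had 6 genes lower and 1 higher, beside 48.2% of all genes with a fold change below 0. Pgd, a dehydrogenase that makes NADPH, was at 33.3 ± 9.10 CPM in the 3 WT libraries (mean ± SD, n = 3) and 15.5 ± 3.15 CPM in the 4 KO ones (n = 4), with ranges apart and a log2 fold change of -1.10 (SE 0.26, edgeR adjusted p = 0.116); its DESeq2 adjusted p was 0.0125. G6pdx, the entry enzyme, was at -0.90 (DESeq2 adjusted p = 0.0477), or -0.44 without WT-2404, and Pgls at 0.71. All 5 tested gluconeogenesis genes were higher in KO, 3 at an unadjusted p under 0.05, beside 9.6% of all genes. Without WT-2404, 1 of 5 reached that p, beside 9.42% of all genes in either direction. Fbp2 was at 0.88, Pck2 at 0.85 and Pcx at 0.80, or 0.69, 0.62 and 0.42 without WT-2404, and Pcx at 1.27 without WT-2067. By library size alone Pgls was at -0.46, Fbp2 at -0.21, Pck2 at -0.28 and Pcx at -0.098.

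Among 17 hypoxia-inducible factors and targets, 9 were higher and 8 lower in KO, with 3 higher and 2 lower at an unadjusted p under 0.05. At that level 9.6% of all genes were higher and 13.9% lower. Hif1a, which encodes a factor known to drive glycolytic genes in low oxygen, was at 39.6, 29.4 and 30.3 CPM in WT, at 23.2, 27.1 and 19.9 in Het and at 22.3, 20.1, 17.0 and 28.6 in KO libraries. Its 3 WT values exceeded the 7 others, with a log2 fold change of -0.59 (SE 0.21, edgeR adjusted p = 0.133). Car9, a carbonic anhydrase and a known target of that factor, was at 15.0, 10.8 and 7.41 CPM in WT, at 2.37, 5.12 and 4.79 in Het and at 3.58, 0.395, 2.17 and 1.41 in KO libraries. Its WT values also exceeded the 7 others, with a fold change of -2.47 (SE 0.48, edgeR adjusted p = 0.116), a DESeq2 adjusted p of 0.00106, and -2.16 without WT-2404. The Car9 value of KO-2070 stands for 3 counts. Bnip3, a mitophagy gene and also a known target, stood the other way, at 8.77 ± 5.51 CPM in WT and 18.3 ± 3.38 CPM in KO libraries and at 1.07 (SE 0.35, edgeR adjusted p = 0.126), or 1.72 without WT-2067.

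**Figure D5:**
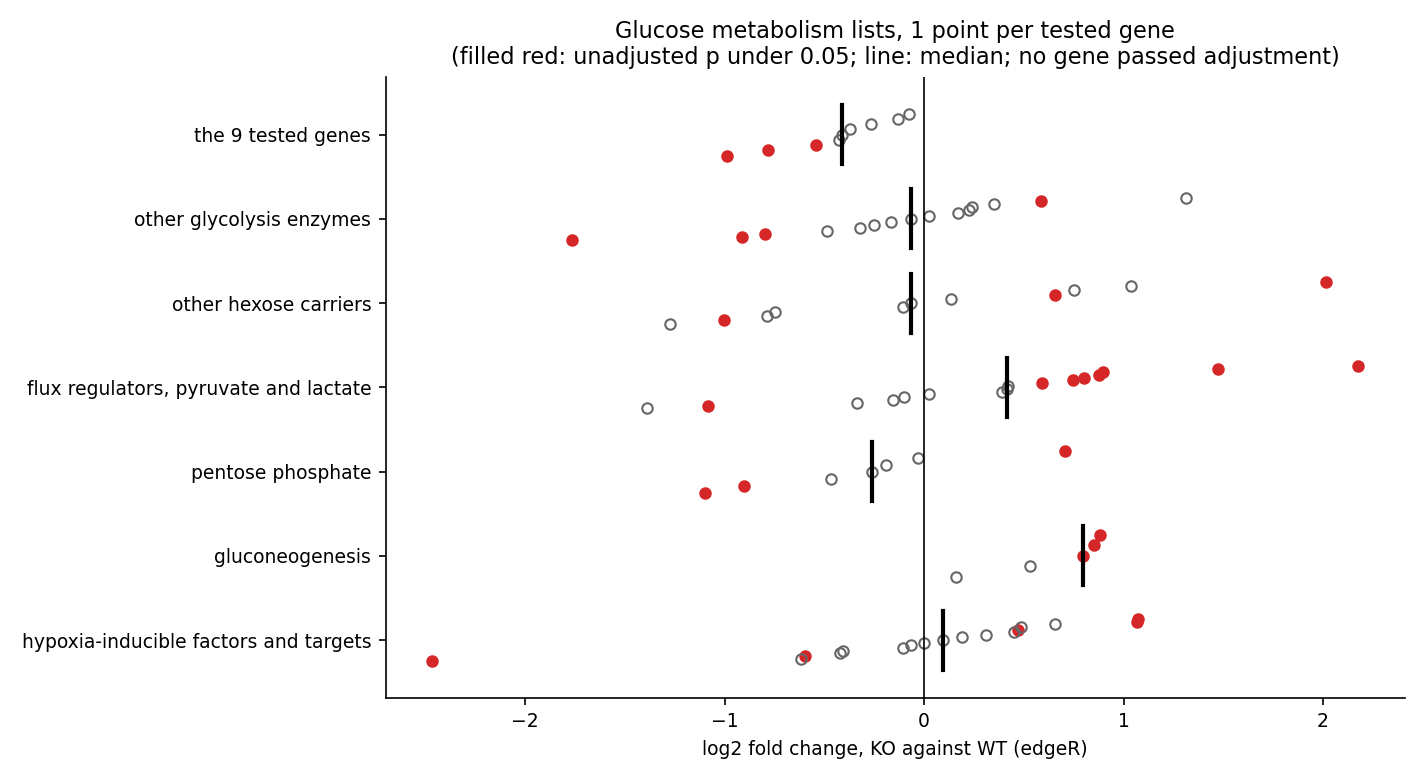
Log2 fold changes of KO against WT (edgeR) for every tested gene of the glucose metabolism lists, 1 point per gene, with each list's median marked. The 9 tested members all lie below 0 (median -0.41), while the medians of the flux and pyruvate genes (0.42) and of the gluconeogenesis genes (0.80) lie above; no gene passed the adjusted threshold.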

How the data were processed

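Stranded mRNA libraries were made from frozen pancreas pieces, per the labels' protocols; the protocol text of WT-2404 names another kit of the same maker. Raw counts per gene symbol were deposited by the authors. The submitters' processing notes name mm10, DRAGEN, STAR and Cufflinks; the counting tool and annotation are not given in the sources used here. The 2 rows that name no gene (2.59% to 8.71% outside genes, 0.101% to 0.584% ambiguous) stayed out of library sizes and tests. Every group also shared a further genotype element that is not reported here.

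Counts were filtered (filterByExpr, minimum count 10), scaled by TMM and tested in edgeR 4.0.16 with the two-sided quasi-likelihood test (robust, Benjamini-Hochberg over all genes tested, threshold 0.05) in 1 fit over 10 libraries. The procedure was also run on simulated counts with known changes and the same spread for all genes. Those counts held no difference in make-up between libraries, so they do not test how it handles such differences. Standard errors come from the quasi-F statistic, with a prior count of 2 behind log2 CPM. Ratios added 0.5 to each count and were compared by exact permutation. Shared windows and coordinates come from GENCODE M21. Promoters come from RefSeq, where all 10 members matched, and the start site with most GENCODE starts nearby was used, or the first by coordinate among ties.

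The members and lists were chosen with earlier results of these data known. Beyond the members, up to 3 genes per list with the smallest p and 10 further genes were named, with Insr, the 5 genes most alike and the genes that share sequence or overlap with members. Alternatives were DESeq2 1.42.0, its size factors in edgeR, library size alone, a filter of 1 count in any library, only the groups compared, leaving out each library and, for ratios, nothing added.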

Additional observations from a re-analysis of the deposited data

Results flagged for a closer look

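Only the KO group has 4 libraries, and the gap of its highest and lowest library was examined for 40 measures; 3 had a library far from the other 3, where chance alone gives about 1 in 20, or 2. Pkm was at 51.8 CPM in KO-2124 and at 69.9 to 72.3 CPM in the remaining KO samples. Tpi1, triosephosphate isomerase of the same pathway, was at 25.9 CPM in KO-2124 and at 32.3 to 33.3 CPM in the others. Slc2a2 was at 19.6 CPM in KO-2070 and at 5.62 to 7.91 CPM in the others. The endocrine marker sum was 8072 CPM in KO-2070 and 3408 to 4429.7 CPM in the rest of that group, and its part in the Slc2a2 level was not tested.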

How the results depend on the processing

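Across 69 results and 944 recomputed values, 846 kept their direction and side of the threshold, and the cause of the changes below was not tested. Genes past the adjusted threshold in KO against WT numbered 2835 by library size alone, 1009 with DESeq2 and 0 to 1933 leaving out 1 library (the highest without WT-2067). For Het against WT they numbered 3125, 400 and 0 to 1158 (the highest without WT-2067), and for a slope over floxed alleles 436 with DESeq2 and 0 to 11 leaving out 1 library (11 without KO-2079, 1 without KO-2124). The genes tested numbered 13688 by library size alone and with DESeq2, and 14172 without WT-2067. Of the 9 tested members, 7, 1 and 0 to 2 passed in KO and 9, 1 and 0 to 1 in Het, in the same order. Members with an unadjusted p under 0.05 numbered 9 by library size alone and 1 to 5 leaving out 1 library in KO, and 9, 2 with DESeq2 and 1 to 4 in Het. By library size alone, 6291 of all 13688 genes reached that p in KO and 6984 in Het. With DESeq2, 2967 of all 13688 genes did in Het. The members' median log2 fold change by library size alone was -1.68 in KO and -1.84 in Het, beside -1.17 and -1.36 over all genes. It was -0.54 to -0.16 in KO and -0.65 to -0.29 in Het leaving out 1 library.

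Values that turned sign were, by library size alone in KO against WT, Pgam1 at -1.28, Pfkm at -0.59, Ldhb at -0.95, Slc2a8 at -0.59, Mpc2 at -0.33, Pgls at -0.46, Fbp2 at -0.21, Pck2 at -0.28 and Pcx at -0.098. Leaving out 1 library, Hk2 was at 0.10 without WT-1860 and 0.12 without KO-2070, Pfkl in Het at 0.052 and Gpi1 at 0.014 without WT-2404, Aldoa in Het at 0.11 without Het-2066, and Pgam1 at -0.022 without WT-2067 and -0.027 without KO-2126. The log2 ratio of Pfkp to Pfkl in KO minus WT was -0.097 without KO-2079, -0.048 without KO-2124 and -0.17 without WT-2067, in a range of -0.17 to 0.30. Hk2 to Hk1 in Het minus WT was -0.12 without Het-1770 and -0.11 without WT-2404. In KO minus Het, Ldha to Ldhb was -0.13 without KO-2079, -0.019 without KO-2126 and -0.18 without Het-2066, and Pkm to Gapdh -0.0011 without Het-1770. Leaving out each library in turn gave -0.37 to 0.12 for Hk2 and -0.027 to 0.48 for Pgam1 and -0.13 to 0.014 for Gpi1 in KO, -0.37 to 0.052 for Pfkl and -0.14 to 0.11 for Aldoa in Het, and for the ratios -0.12 to 0.32 (Hk2 to Hk1, Het minus WT), -0.18 to 0.16 (Ldha to Ldhb, KO minus Het) and -0.0011 to 0.11 (Pkm to Gapdh, KO minus Het). No paired analysis was possible because the groups share no mouse number. Depth limits Hk2 most of the tested members, with 26 counts in its shallowest library, and Eno1 was below the filter.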

Other observations

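The 5 genes outside all lists whose log2 CPM over the 10 libraries was most like the mean of the 9 tested members were Capzb (r = 0.98, 0.95 without WT-2404), Myadm (r = 0.97, 0.93 without WT-2404), Sod3 (r = 0.96, 0.92 without WT-2404), Arhgdia (r = 0.96, 0.92 without WT-2404) and Actn4 (r = 0.96, 0.93 without WT-2404). The libraries share their scaling and make-up, and these Pearson correlations are a description.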
